A study of Homo sapiens with 8 samples.

Results

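Stress granules are assemblies of stalled mRNAs and RNA-binding proteins, and TIA1 and TIAR are among the proteins that define them. The mRNAs of 10 proteins that share these granules with TIA1 and TIAR were followed in human cells made to express GFP, HuR, TIA1 or TIAR. The genes were G3BP1, G3BP2, CAPRIN1, USP10, ATXN2, PABPC1, FMR1, FXR1, FXR2 and DDX3X, taken as a named list, and every array probe that the design assigns to them was read. They gave 16 probes of the 50599 on the array, and all 16 were well above background on all 8 arrays, so none was lost to the filter on dim probes.

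The cells were FT293, a HEK293 (human embryonic kidney) derivative in which a Flp recombinase places 1 transgene at a fixed genomic site and tetracycline switches it on. The control line expressed GFP alone, and the other 3 lines expressed GFP-HuR, GFP-TIA1 or GFP-TIAR. Total RNA was taken on day 3 of tetracycline, and 2 one-colour arrays, described as biological replicates, were run for each line, with no uninduced cells among them. All 8 arrays came from tetracycline-treated lines, each protein was represented by a single stable line, and differences between lines and differences between expressed proteins therefore cannot be told apart.

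G3BP1 and its paralogue G3BP2 are the scaffold proteins on which stress granules condense. CAPRIN1 and USP10 bind them at the same site, with CAPRIN1 favouring and USP10 opposing assembly. ATXN2 and PABPC1 bring in polyadenylated mRNA, FMR1, FXR1 and FXR2 form the fragile X family of translational regulators, and DDX3X is an RNA helicase used in translation initiation. TIA1 and TIAR are themselves related proteins that bind U-rich sequences and nucleate granules when initiation stalls, while HuR, encoded by ELAVL1, binds AU-rich elements and is best known for stabilising mRNA.

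Values are log2 of the processed signal minus the array's 75th percentile, so that 1 unit is a 2-fold difference. A level on this scale can be compared between arrays for the same probe, but not between probes. The array GFP 1 stood apart from the other 7, with 43530 probes well above background against 26931 to 29605 and a mean local background of 83.2 against 35.7 to 41.5 intensity units. The GFP pair differed at least 2-fold for 15.8% of the probes detected on both of its arrays, compared with 0.455% for HuR, 1.13% for TIA1 and 1.45% for TIAR. Over the 16 probes followed here, the median difference between the arrays of a line was 0.25 for GFP, 0.16 for HuR, 0.24 for TIA1 and 0.16 for TIAR. Of the 2 probes for TIAL1, the gene of TIAR, 1 rose in the TIAR line relative to HuR cells by 2.44 (adjusted p = 0.00375, limma), and the other was -0.39 (95% interval -0.74 to -0.04, adjusted p = 0.0892, limma). The ELAVL1 probe was not higher in the HuR line, with 0.33 and 0.42 on the HuR arrays and 1.09 and 0.91 on the GFP arrays, a difference of -0.63 (95% interval -1.10 to -0.15, adjusted p = 0.232, limma). The TIA1 probes were lower in the TIA1 line than in HuR cells, by -0.98 and -0.52 (adjusted p = 0.00473 and 0.0478, limma). They were also lower in the TIAR line, by -1.58 and -0.55 (adjusted p = 0.00879 and 0.0396, limma). Neither gene thus rose in the line labelled for it. The paper reports that ectopic TIA1 or TIAR depleted the endogenous TIA proteins, and that ectopic HuR lowered endogenous HuR. Whether the ELAVL1 and TIA1 probes lie in the sequence that the transgenes carry was not analysed here, so they do not check the HuR and TIA1 labels, and lines are named as labelled in every direction given.

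Of the 16 probes, 5 passed the test between TIA1- and HuR-expressing cells (Benjamini-Hochberg adjusted p under 0.05, limma over 28743 probes), which covered 4 of the 10 genes. FXR1 fell on both of its probes and DDX3X fell, while FMR1 and G3BP1 rose on 1 probe each. Across all probes tested in that comparison, 41.5% passed, and 5 of 16 is no larger a share than that. Between TIAR and HuR cells 2 of the 16 passed, 1 for FXR1 and 1 for G3BP1, both lower in TIAR cells, beside 30.6% of 29099 probes. Between TIAR and TIA1 cells 1 of the 16 passed, the same G3BP1 probe, beside 3.48% of 28063 probes. None of the 16 differed at least 2-fold in these 3 comparisons, while 14.3%, 11.2% and 4.38% of all tested probes did. The shares of all tested probes that also passed the test with at least that change were 13.4%, 10.1% and 2.35%. The comparisons share arrays and are not independent of each other.

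**Figure D1:**
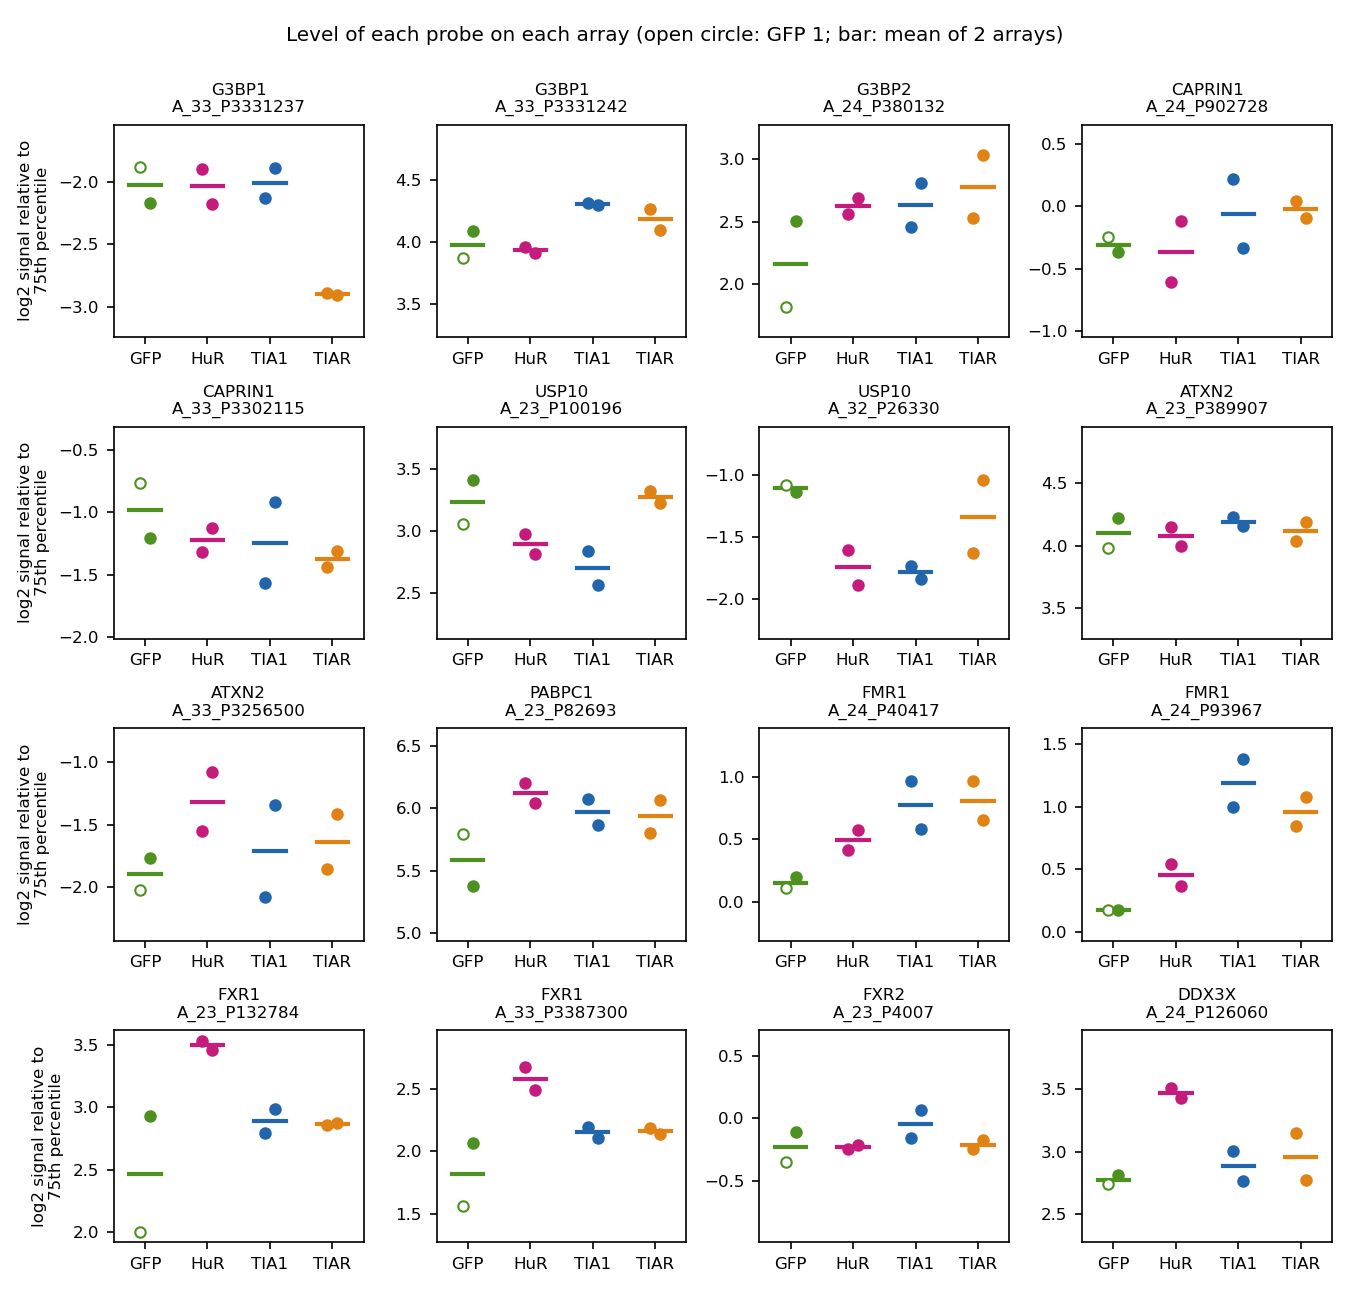
Log2 signal relative to the array's 75th percentile (y axis) of the 16 probes in the GFP, HuR, TIA1 and TIAR lines (x axis), with 1 circle for each array, an open circle for GFP 1 and a bar for the mean of 2 arrays. Every panel spans the same number of log2 units around its own centre. The HuR arrays lie above the other 6 for both FXR1 probes and DDX3X, and the TIAR arrays lie far below the others for only the first G3BP1 probe.

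The median size of change, without sign, was 0.24 over the 16 probes and 0.39 over all probes tested for TIA1 against HuR. For TIAR against HuR it was 0.33 and 0.34, and for TIAR against TIA1 it was 0.10 and 0.22. The signed median of the 16 was close to 0 in all 3, at -0.01, 0.03 and -0.01. Of the probes that missed the test, 9 of 11, 13 of 14 and 14 of 15 had a 95% confidence interval that lay within 2-fold either way.

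G3BP1 was measured by 2 probes that did not move alike. The array design assigns 1 of them to the RefSeq transcript NM_005754, and the other, farther downstream, to the Ensembl transcript ENST00000394123 at chr5:151192282-151192341 (hg19, plus strand), at position 10175 of it. Whether the bases lie in coding or untranslated sequence was not analysed here. The first 30 of the 60 bases of the downstream probe are shown because the fall of G3BP1 in TIAR cells was read there. Capitals mark runs of at least 4 T, the letters TTTT, searched on the probe's own strand, and they are given because TIA proteins bind U-rich RNA.
G3BP1 A_33_P3331237: cccttcctccagtgactgtgcatttaTTTT
Of all 50599 probes, 31.4% had such a run within their 60 bases, and so did 7 of the 16, both G3BP1 probes among them. A run of T in a probe is a description of these letters and not a binding site.

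The downstream probe A_33_P3331237 read -1.88 and -2.17 on the GFP arrays, -1.89 and -2.18 on the HuR arrays, -2.13 and -1.89 on the TIA1 arrays and -2.89 and -2.91 on the TIAR arrays. The first 3 lines overlapped and both TIAR arrays lay below all 6 others, a position that 6.07% of the 24959 probes detected on all arrays held. The probe fell by 0.86 on the log2 scale in TIAR cells relative to HuR cells (standard error 0.13, 95% interval -1.23 to -0.50, adjusted p = 0.0172, limma). Relative to TIA1 cells it fell by 0.89 (standard error 0.13, 95% interval -1.24 to -0.54, adjusted p = 0.0487, limma). The difference between TIA1 and HuR cells was 0.03, with an interval from -0.39 to 0.44. The signal behind these values was 421 and 368 intensity units on the HuR arrays against 188 and 174 on the TIAR arrays.

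The NM_005754 probe A_33_P3331242 read 3.87 and 4.09 in GFP cells, 3.96 and 3.91 in HuR cells, 4.31 and 4.30 in TIA1 cells and 4.27 and 4.10 in TIAR cells. Both TIA1 arrays lay above the other 6, as they did for 13.7% of the probes detected on all arrays. G3BP1 on this probe rose in TIA1 cells relative to HuR cells by 0.37 (standard error 0.09, adjusted p = 0.0357, limma), a 1.29-fold difference. In TIAR cells the difference from HuR cells was 0.25, with an interval from -0.05 to 0.54 (adjusted p = 0.159, limma), and from TIA1 cells it was -0.12, with an interval from -0.45 to 0.20. The fall in the TIAR line on the downstream probe was not seen on this one, and the difference of the downstream from the NM_005754 probe was between -6.43 and -5.75 on the GFP, HuR and TIA1 arrays and -7.16 and -7.00 on the TIAR arrays.

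G3BP2 had 1 probe, which read 1.82 and 2.51 in GFP cells, 2.56 and 2.69 in HuR cells, 2.46 and 2.81 in TIA1 cells and 2.53 and 3.03 in TIAR cells. The lowest of the 8 values was that of GFP 1, and the HuR, TIA1 and TIAR lines overlapped. Its difference from HuR cells was 0.01 in TIA1 cells (95% interval -0.41 to 0.43) and 0.16 in TIAR cells (95% interval -0.39 to 0.70).

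CAPRIN1, the G3BP partner that favours assembly, had 2 probes and neither passed a test. The NM_203364 probe ranged from -0.61 to 0.21 over the 8 arrays and the NM_005898 probe from -1.56 to -0.76. In TIA1 cells the arrays of the line differed by more than the lines did, at 0.21 and -0.34 for the first probe. TIAR minus HuR was 0.34 (95% interval -0.20 to 0.88) on the first and -0.15 (95% interval -0.48 to 0.18) on the second.

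USP10, the deubiquitinase that competes with CAPRIN1 for G3BP, had its higher line means in TIAR and GFP cells on both probes. The first, at chr16:84812831-84812890, was spotted 10 times on each array, and 1 of those spots was left out as an outlier. It read 3.06 and 3.41 in GFP cells, 2.98 and 2.81 in HuR cells, 2.84 and 2.57 in TIA1 cells and 3.32 and 3.22 in TIAR cells. Both TIAR arrays lay above the HuR and TIA1 arrays, a position whose share among all probes was not counted. TIAR minus HuR was 0.37 (95% interval 0.07 to 0.68, adjusted p = 0.0711, limma) and TIAR minus TIA1 was 0.57 (95% interval 0.18 to 0.95, adjusted p = 0.109, limma), and neither passed. The other USP10 probe, 1 spot near the start of the transcript, read -1.08 and -1.14 in GFP cells, -1.60 and -1.88 in HuR cells, -1.73 and -1.84 in TIA1 cells and -1.63 and -1.05 in TIAR cells. TIAR minus TIA1 was 0.45 on that probe, with an interval from -0.15 to 1.04.

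ATXN2, which carries a PABPC1-binding motif, gave the steadiest probe of the group. The probe for NM_002973 stayed between 3.98 and 4.23 on the 8 arrays, with 0.11 between TIA1 and HuR cells (95% interval -0.17 to 0.40) and 0.04 between TIAR and HuR cells (95% interval -0.28 to 0.35). The ATXN2 probe on the Ensembl transcript ENST00000392645 varied from -2.08 to -1.08. Its replicates differed by 0.74 in the TIA1 line, the widest gap of any of the 16 probes in that line, and its intervals reached -1.24 for TIA1 against HuR.

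PABPC1, the main cytoplasmic poly(A)-binding protein, had 1 probe, whose accessions in the design also name PABPC3 and RLIM, so the signal may hold more than 1 transcript. It read 5.80 and 5.38 in GFP cells, 6.21 and 6.05 in HuR cells, 6.07 and 5.87 in TIA1 cells and 5.80 and 6.07 in TIAR cells. The HuR, TIA1 and TIAR arrays overlapped, and GFP 2 had the lowest value. TIA1 minus HuR was -0.16 (95% interval -0.49 to 0.18) and TIAR minus HuR was -0.19 (95% interval -0.58 to 0.19).

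Within the fragile X family the members went separate ways relative to HuR cells. FXR1, known for its muscle isoforms, fell in TIA1 cells on 2 probes and in TIAR cells on 1. FMR1, the gene silenced in fragile X syndrome, rose in TIA1 cells on 1 probe, and FXR2 did not pass in either comparison. The first 30 bases of the FXR1 and FMR1 probes are shown because each gene was read in 2 places. The probes A_33_P3387300 (chr3:180688091-180693910, plus strand) and A_24_P93967 (chrX:147014095-147014243, plus strand) span more of the genome than their 60 bases and so cross an exon junction. The probes A_23_P132784 (chr3:180694169-180694228) and A_24_P40417 (chrX:147031752-147031811) lie in a single stretch. Capitals again mark runs of at least 4 T.
FXR1 A_23_P132784: agtctttacatcgcactttcagttcctcca
FXR1 A_33_P3387300: tctgatggatggaatgactgaatctgatac
FMR1 A_24_P93967: catttcatatttatggagaggatcaggatg
FMR1 A_24_P40417: ttgtgagtttgtttctttgaaTTTTcattt

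FXR1 on A_23_P132784 read 2.00 and 2.93 in GFP cells, 3.53 and 3.46 in HuR cells, 2.80 and 2.99 in TIA1 cells and 2.85 and 2.88 in TIAR cells. On A_33_P3387300 it read 1.57 and 2.07, 2.68 and 2.49, 2.20 and 2.11, and 2.19 and 2.14 in the same order. On both probes the HuR arrays lay above the other 6, and the TIA1 and TIAR arrays overlapped. The first probe fell by 0.60 in TIA1 cells relative to HuR cells (standard error 0.11, adjusted p = 0.0188, limma) and fell by 0.63 in TIAR cells (standard error 0.09, adjusted p = 0.0160, limma). The second fell by 0.43 in TIA1 cells (adjusted p = 0.0427, limma), but missed the threshold with normexp, quantile normalization and the authors' values. In TIAR cells its difference was -0.42 (95% interval -0.72 to -0.12, adjusted p = 0.0557, limma), which missed the threshold. TIAR minus TIA1 was -0.03 and 0.01, with intervals within -0.36 and 0.31.

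FMR1 had its lowest values in GFP cells, then HuR cells, and its highest in the TIA lines. Both GFP arrays lay below the other 6 for both FMR1 probes, for 1 FXR1 probe and for PABPC1 (the last by less than the printed digits, GFP 1 against TIAR 1), which makes 4 of the 16 beside 12.0% of the probes detected on all arrays. A_24_P93967 read 0.18 and 0.18 in GFP cells, 0.54 and 0.37 in HuR cells, 1.00 and 1.38 in TIA1 cells and 0.84 and 1.08 in TIAR cells. No array of the TIA lines overlapped an array of the GFP or HuR lines, but the share of all probes that separate so was not counted. The probe rose in TIA1 cells relative to HuR cells by 0.74 (standard error 0.17, adjusted p = 0.0302, limma), or 1.67-fold. TIAR minus HuR was 0.51 (95% interval 0.14 to 0.87, adjusted p = 0.0554, limma) and missed the threshold. The other probe read 0.11 and 0.19 in GFP cells, 0.41 and 0.57 in HuR cells, 0.96 and 0.58 in TIA1 cells and 0.97 and 0.65 in TIAR cells. Its order of lines was similar but its differences from HuR were smaller, at 0.28 in TIA1 cells (95% interval -0.17 to 0.73) and 0.32 in TIAR cells (95% interval -0.10 to 0.73), and neither passed.

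FXR2 had 1 probe that read -0.35 and -0.11 in GFP cells, -0.25 and -0.22 in HuR cells, -0.16 and 0.06 in TIA1 cells and -0.25 and -0.17 in TIAR cells. TIA1 minus HuR was 0.18 (95% interval -0.13 to 0.50) and TIAR minus HuR was 0.02 (95% interval -0.24 to 0.28).

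DDX3X was read by 1 probe at chrX:41208627-41208686 on the plus strand, whose first 30 bases are shown because it is the only probe behind the fall of this gene.
DDX3X A_24_P126060: tgttgaacgcagcttgtctaggaaggggat
It read 2.74 and 2.81 in GFP cells, 3.51 and 3.43 in HuR cells, 3.01 and 2.77 in TIA1 cells and 3.15 and 2.77 in TIAR cells. Both HuR arrays lay above the other 6, as for the FXR1 probes, which makes 3 of the 16 probes in 2 genes, beside 13.2% of the 24959 probes detected on all arrays. DDX3X fell by 0.58 in TIA1 cells relative to HuR cells (standard error 0.12, adjusted p = 0.0252, limma). The difference was -0.51 in TIAR cells (95% interval -0.94 to -0.08, adjusted p = 0.0790, limma), whose 2 arrays stood farther apart than those of any other line.

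**Figure D2:**
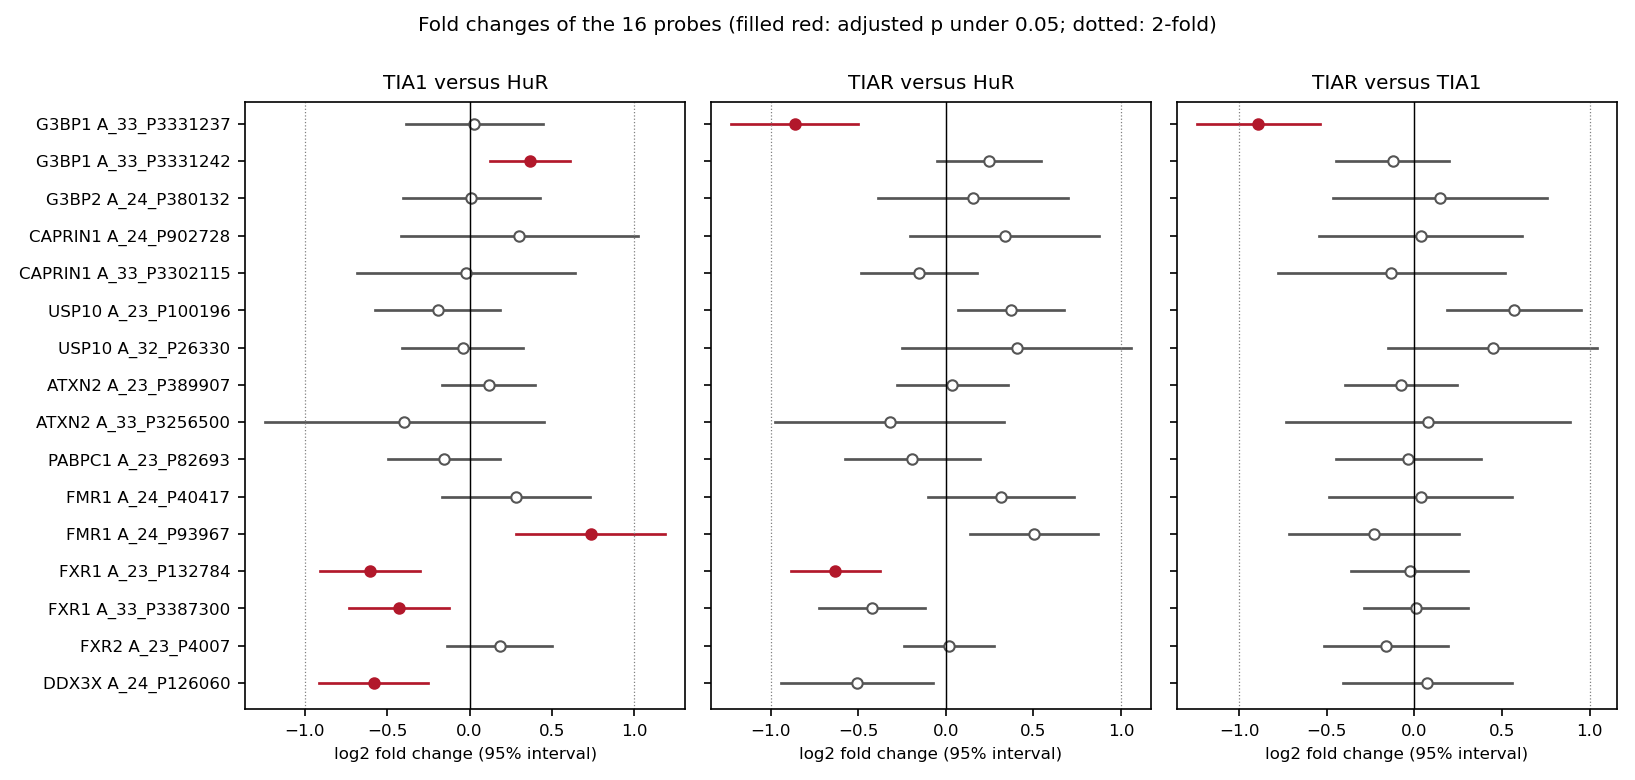
Log2 fold change with its 95% confidence interval (x axis) of the 16 probes (y axis) for TIA1 against HuR, TIAR against HuR and TIAR against TIA1, with filled red circles for an adjusted p under 0.05 and dotted lines at a 2-fold change. The 5, 2 and 1 probes that passed are those of FXR1, DDX3X, FMR1 and G3BP1, and no point reaches a dotted line.

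Without HuR 1 or without HuR 2 none of the 16 probes passed in TIA1 or TIAR cells, while the share of all probes fell to 11.4% and 10.3% for TIA1 and to 2.66% and 2.17% for TIAR. The fold changes were -0.57 and -0.64 for FXR1 A_23_P132784 and -0.54 and -0.62 for DDX3X in TIA1 cells. For the downstream G3BP1 probe they were -0.72 and -1.01 in TIAR cells. Each pair averages to the value from both HuR arrays, so it shows only the gap between those arrays. Without either TIA1 array 3 of the 16 passed, FMR1, DDX3X and FXR1 A_23_P132784, beside 43.5% and 42.6% of all probes. Without TIAR 1 the count in TIAR cells was 4, with DDX3X and FMR1 added, beside 32.1% of all probes, and without any of the 4 arrays the G3BP1 call between TIAR and TIA1 cells was lost, where at most 0.121% of all probes passed. When the 8 arrays were fitted jointly, so that GFP 1 enters the common estimate of spread, 1 probe passed for TIA1 and 1 for TIAR, beside 18.6% and 12.3% of all probes. With GFP 1 left out of that fit, an alternative chosen after the data were seen, 5 and 3 passed, beside 40.9% and 32.5%.

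Against GFP cells none of the 16 probes passed in the TIA1, TIAR or HuR line, nor did any of the 28042, 28600 and 28871 probes tested (0% in each, limma with Benjamini-Hochberg adjustment). At an unadjusted p under 0.05 the counts were 2, 3 and 3 of the 16, against 6078, 4686 and 4970 of all probes (21.7%, 16.4% and 17.2%). The values of GFP 1 touch every one of these differences, and with 4 arrays the intervals of only 6, 7 and 9 of the 16 probes lay within 2-fold. Without GFP 1, which leaves a single GFP array that is assumed to vary like the other line, 0 probes passed in TIA1 cells, 0 in TIAR cells and 3 in HuR cells, beside 14.0%, 6.58% and 23.2% of all probes tested.

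The 3 probes that rose in HuR cells without GFP 1 were PABPC1 by 0.75, DDX3X by 0.66 and FXR1 A_23_P132784 by 0.56 (adjusted p = 0.0357, 0.0341 and 0.0421, limma). With both GFP arrays the differences of the same probes were 0.54, 0.69 and 1.03, with intervals from -0.10 to 1.18, 0.25 to 1.14 and -0.06 to 2.11. FXR1 depended most on the array, since GFP 2 lay 0.93 above GFP 1 on that probe, the widest replicate gap of the 16 probes in any line. TIA1 and TIAR cells differed from GFP cells on it by 0.43 and 0.40 with both GFP arrays, and by -0.04 and -0.07 without GFP 1. When all arrays but GFP 1 were fitted together, none of the 16 probes passed in HuR cells, and PABPC1, DDX3X and FXR1 had adjusted p-values of 0.0532, 0.0936 and 0.0504 (limma).

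FMR1 A_24_P93967 was the probe farthest from GFP in the TIA1 line, by 1.01 (95% interval 0.39 to 1.64, adjusted p = 0.140, limma). The value was 0.78 in TIAR cells (95% interval 0.22 to 1.35, adjusted p = 0.232, limma). GFP 1 and GFP 2 agreed on this probe, so the values without GFP 1 were the same to 2 decimals, with adjusted p-values of 0.0667 and 0.0967 (limma). In the fit of all arrays but GFP 1 it passed in both lines, with adjusted p = 0.0207 and 0.0490 (limma). USP10 lay below GFP in the TIA1 line on both probes, by -0.53 and -0.67, and by -0.71 and -0.65 without GFP 1. In that same fit the first of them passed (adjusted p = 0.0285, limma), while the second was 0.01 in the authors' log2 values. The downstream G3BP1 probe was -0.88 from GFP in TIAR cells (95% interval -1.47 to -0.29, adjusted p = 0.220, limma) and -0.73 without GFP 1. It was -0.32 after quantile normalization and -0.27 in the authors' log2 values. This probe also passed in the fit of all arrays but GFP 1, and with all 8 arrays in one fit.

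**Figure D3:**
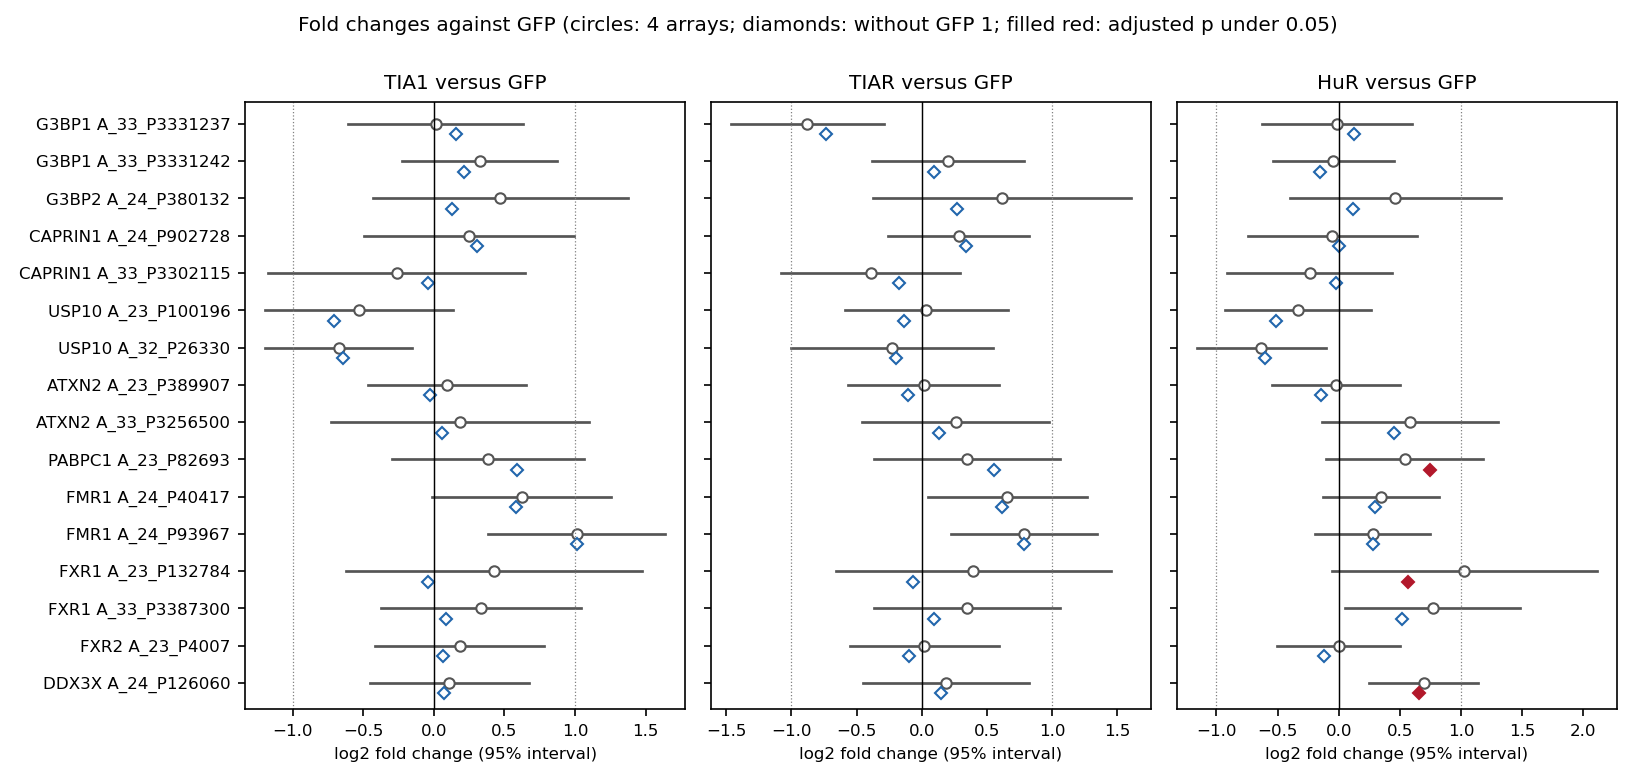
Log2 fold change against GFP (x axis) of the 16 probes (y axis) in the TIA1, TIAR and HuR lines, as circles with 95% confidence intervals from 4 arrays and as diamonds without GFP 1, with filled red for an adjusted p under 0.05. No circle is filled, and the 3 filled diamonds are PABPC1, FXR1 and DDX3X in HuR cells.

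By the line means, the widest spread between lines was 1.03 for FXR1 A_23_P132784 and 1.01 for FMR1 A_24_P93967. The profiles over 8 arrays nearest to that FXR1 probe among 24943 probes, each centred on its own mean, were those of RASSF5, SNORA66 and TERF1, with root mean square differences of 0.09, 0.09 and 0.10 log2 units. For FMR1 they were SNAR-G1, C8G and the transcript ENST00000458667, at 0.09, 0.10 and 0.10. TERF1, a telomere-binding protein, read 1.03 and 1.67 in GFP cells, 2.54 and 2.48 in HuR cells, 1.75 and 1.97 in TIA1 cells and 1.67 and 1.82 in TIAR cells, with GFP 1 again the lowest.

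Further groups of genes around stress granules were read in the same way, with their lists written from general knowledge. Other stress granule proteins had 40 genes and 72 tested probes, of which 7 rose and 14 fell in TIA1 cells and 5 rose and 17 fell in TIAR cells relative to HuR cells. Among all tested probes 24.2% rose and 17.3% fell in TIA1 cells, and 18.1% rose and 12.6% fell in TIAR cells. The median change of the list was -0.14 and -0.18, beside 0.08 and 0.05 over all probes. Processing body proteins, which decay and store mRNA next to stress granules, had 15 genes and 24 probes. Of these 7 rose and 2 fell in TIA1 cells, while 8 rose and none fell in TIAR cells. In each line 1 of the 24 rose at least 2-fold, beside 8.50% and 7.06% of all tested probes. The medians of the processing body probes were 0.36 and 0.23. Genes of the eIF2 alpha kinases, phosphatases and exchange factor, which set when initiation stalls, had 12 genes and 15 probes. Of these probes 1 rose and 5 fell in each line, with medians of -0.18 and -0.29. The 5 falling probes came from 3 genes. Relative to GFP cells the median of the eIF2 group was 0.11 in TIA1, 0.00 in TIAR and 0.29 in HuR cells, that of the processing body probes was 0.21, 0.06 and -0.03, and that of the other stress granule probes 0.03, -0.12 and 0.14.

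Of the other stress granule proteins, OGFOD1, a ribosomal protein hydroxylase, fell in TIA1 cells by 1.06 (adjusted p = 0.00385, limma). STAU2, a double-stranded RNA-binding protein, was split over 3 probes, of which 1 fell by 2.34 in TIA1 cells and by 1.71 in TIAR cells and another rose by 0.51 and 0.50. The means of the falling probe were -2.09 in GFP, -0.75 in HuR, -3.09 in TIA1 and -2.47 in TIAR cells. Those of the rising probe were 0.59, -0.15, 0.36 and 0.35 in the same order. HuR was thus the highest line on the falling probe and the lowest on the rising one. The remaining STAU2 probe rose by 0.43 in TIAR cells (adjusted p = 0.0463, limma) and was 0.39 in TIA1 cells (adjusted p = 0.0567, limma). The antiviral ZC3HAV1 rose by 0.63 and 0.83 on 1 probe, but its other probe was 0.08 and -1.06 and did not pass. In TIAR cells CPEB4, which binds cytoplasmic polyadenylation elements, rose by 0.52 and the cold-inducible CIRBP fell by 0.88 on 1 of 2 probes (adjusted p = 0.0248 and 0.0216, limma).

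Among processing body genes LSM14B, an RNA-binding component of these bodies, rose in TIA1 cells relative to HuR cells by 1.11 and 0.89 on 2 of 3 probes, and TNRC6B, a partner of Argonaute, rose by 0.73 (adjusted p = 0.00783, 0.0196 and 0.0107, limma). The LSM14B means were -3.69 in GFP, -4.80 in HuR and -3.69 in TIA1 cells on the first of these probes and -0.98, -2.52 and -1.62 on the second, so the HuR line was the lowest. The decapping factor DCP1B fell by 0.64, and 1 DDX6 probe fell by 0.55 while the other was 0.47 and did not pass. In TIAR cells PATL1, a decapping scaffold, rose relative to HuR cells by 1.20 (adjusted p = 0.0108, limma), with means of 0.25 in GFP, -0.90 in HuR and 0.30 in TIAR cells. EIF4ENIF1, which binds the cap-binding protein eIF4E, rose by 0.79 and 0.44 on 2 of 3 probes (adjusted p = 0.0418 and 0.0356, limma). In the eIF2 group, EIF2B3 fell on all 3 probes in both lines, with log2 fold changes of -1.45, -1.28 and -0.59 in TIA1 cells and -1.01, -0.89 and -0.55 in TIAR cells. The probes behind the 2 larger changes overlap (chr1:45316485-45316544 and chr1:45316514-45316573) and are not separate readings of the gene. EIF2B5, another subunit of the same exchange factor, had log2 fold changes of -0.90 and -1.17 and fell in both relative to HuR cells. Its probe read -0.22 and 0.22 in GFP cells and 0.91 and 1.09 in HuR cells. It read -0.02 and 0.23 in TIA1 cells and -0.29 and -0.06 in TIAR cells, so the HuR line was the highest. PPP1R15A, the stress-inducible phosphatase subunit, rose by 0.55 and 0.78 (adjusted p = 0.0305 and 0.0378, limma). Between TIAR and TIA1 cells 1 of the 71 tested probes of other stress granule proteins fell and none rose. None of the 24 processing body and 15 eIF2 probes passed. Among all probes tested there, 1.74% rose and 1.74% fell, so few calls were made on the whole array as well.

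**Figure D4:**
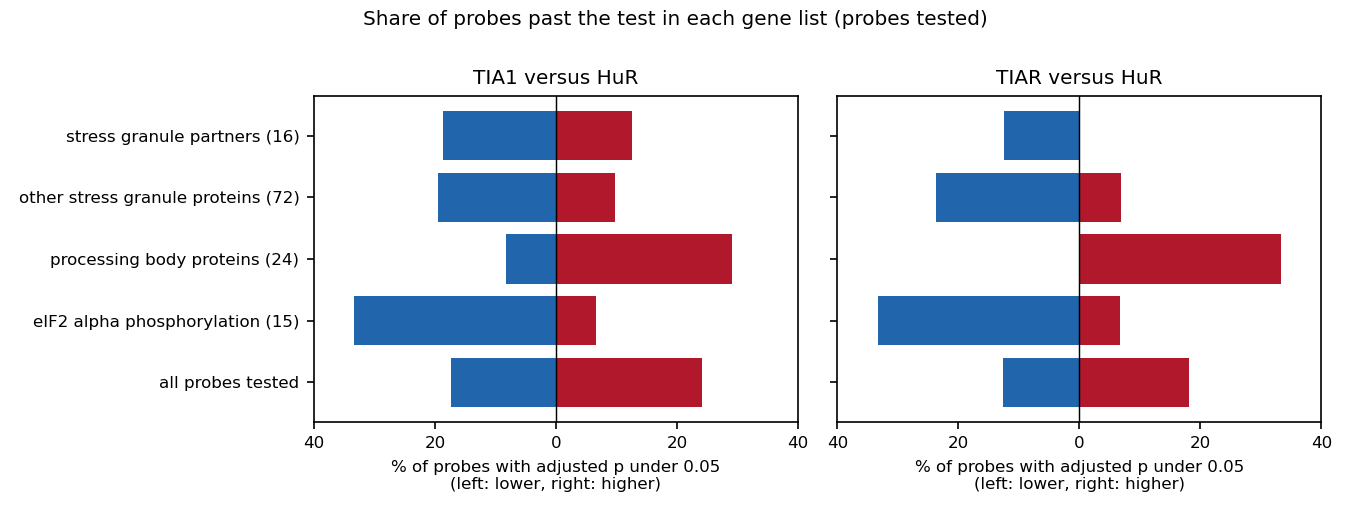
Share of tested probes with an adjusted p under 0.05 (x axis, lower to the left in blue and higher to the right in red) in TIA1 and TIAR cells relative to HuR cells, for the 16 stress granule partner probes, the other stress granule proteins, the processing body proteins, the eIF2 alpha group and all tested probes. The number of probes in each list stands beside its name. Processing body probes lie mostly to the right and eIF2 alpha probes mostly to the left, where the 5 eIF2 alpha probes come from 3 genes.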

How the data were processed

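Total RNA of 4 FT293 lines, 2 arrays each, had been hybridized to Agilent 8x60K human arrays. For each array the authors deposited the output of Agilent Feature Extraction 10.7.3.1 (protocol GE1_107_Sep09, probe positions on hg19). Per the file headers, the deposited processed signal is an intensity from which the scanner software had subtracted background and spatial trend, with no scaling between arrays. A deposited table of log2 values, in which the TIAR arrays have 1 distribution (median 7.08) and the others another (medians 7.23 and 7.24), served only as an alternative.

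The log2 processed signals were centred on each array's 75th percentile, without outlier spots, and repeated spots were averaged. A probe was tested where the software marked it well above background on the 2 arrays of either compared line. Tests used limma 3.58.1 under R 4.3.3 on the 4 arrays of each comparison, with Benjamini-Hochberg adjustment over all tested probes. The 6 comparisons were not adjusted for each other. Files were read with the package data.table (version 1.17.8) and figures drawn with matplotlib 3.10.9. The script was tested on simulated data. The number of arrays limits the precision.

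Alternatives were normexp (offset 50), quantile normalization, the deposited log2 table, other filters on dim probes, a joint fit of the 8 arrays (also weighted), a block for the replicate number, the methods' paired test and leaving out each array. Genes named are the 10 members with all probes, the genes of the expressed proteins, the 2 highest and 2 lowest passing genes of each further list in each comparison with HuR, and the 3 nearest profiles. Some results under this rule are not reported here. The members, lists and tests were chosen with earlier results of these data known. A protocol label names a rat array, while the files hold the human design, and 1 TIA1 array has a source name ending in TIA2. Its title and genotype label say TIA1 and were used.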

Additional observations from a re-analysis of the deposited data

How the results depend on the processing

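The probes that passed against HuR or between TIAR and TIA1 kept their direction with normexp, quantile normalization and the authors' values. The other alternatives could not have turned a direction. They reuse the same line means, or leave out an array where the arrays of the compared lines did not overlap. For TIA1 against HuR, the count of 5 probes became 3 with normexp (beside 44.0% of all probes), 4 with quantile normalization (40.7%) and 4 with the authors' values (38.9%). FXR1 A_33_P3387300 missed the threshold in each of them (adjusted p = 0.0797, 0.0559 and 0.136, limma). The count became 0 with no filter on dim probes (9.25%) and 1 with all 8 arrays in one fit (18.6%). For TIAR against HuR, the count of 2 became 3 with quantile normalization (30.2%), 4 with the authors' values (30.1%) and 4 with probes well above background on all 4 arrays (34.2%). It became 0 with no filter (5.44%), 1 with all 8 arrays (12.3%) and 5 with array weights added (36.3%). The 1 probe for TIAR against TIA1 became 0 with normexp (1.56%), the authors' values (2.21%), no filter (0%) and all 8 arrays (1.56%). The methods' paired test gave 0 probes in each comparison, among the 16 and on the whole array, and so says nothing about stability. Against GFP, all 8 arrays in one fit gave 1 probe for TIA1, 2 for TIAR and 0 for HuR (18.9%, 11.6% and 6.73%), and leaving GFP 1 out of that fit gave 2, 2 and 0 (30.0%, 24.4% and 13.6%). Leaving out single arrays gave 0 to 3 probes for TIA1 against HuR, 0 to 4 for TIAR against HuR, 0 for TIAR against TIA1, and 0 to 3, 0 to 2 and 0 to 5 for TIA1, TIAR and HuR against GFP. The highest GFP counts came without GFP 2, which left GFP 1 as the only GFP array (35.5%, 28.4% and 54.5% of all probes). Among probes that passed against GFP in 1 such setting, FXR1 A_23_P132784 ran from -0.04 to 0.89 for TIA1 and from -0.07 to 0.86 for TIAR, and USP10 A_32_P26330 from -0.73 to 0.01 for TIA1 and from -0.77 to 0.14 for HuR. Quantile normalization moved the median change of all probes against GFP to 0.24, 0.21 and 0.23 from 0.01, -0.02 and -0.04. The cause of these changes was not tested.

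Deviations of same-numbered arrays correlated between -0.09 and 0.18 over 24959 probes. Little pairing by replicate number was thus seen, but weak correlations cannot exclude it. With the replicate number as a block, 3 probes passed for TIA1 against HuR, 2 for TIAR against HuR, 0 for TIAR against TIA1 and 0 in each comparison with GFP.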
